A study of Mus musculus with 4 samples.

Results

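The cytosolic ribosomal protein genes were taken as all rows of the 4 count tables whose whole symbol was RPL or RPS with 1 or 2 digits, alone or followed by A, L, X or AL, together with RPLP0, RPLP1, RPLP2 and RPSA, and without the pseudogene rows marked -PS. This gave 80 of 25824 gene symbols, 50 of the large and 30 of the small ribosomal subunit. Of the 80, 60 were listed for all 4 mice, 6 for 3 mice, 6 for 2 mice and 8 for 1 mouse. The counts came from droplet single-cell RNA sequencing of testes, in which the 3′ ends of transcripts are counted per cell barcode. The 4 mice had the C56BL/6J background (spelled as in the labels) and were labelled 15 weeks old. The 2 WT mice were labelled Ctcf wt/wt, and the study's methods also admit littermates with floxed Ctcf as WT. The 2 Ctcf-cKO mice were labelled Stra8-iCre-Ctcf f/Δ, with 1 floxed and 1 deleted allele of the gene for the chromatin factor CTCF. Their Cre recombinase is driven by the Stra8 promoter, which is active in germ cells that enter meiosis, so that other cells keep the floxed allele. Mice were the replicates. For Ctcf itself the tables held 110 and 49 counts (WT) against 4 and 7 (Ctcf-cKO), or 16.4 and 10.1 against 1.51 and 4.39 CPM (counts scaled to the depth of the table).

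A cytosolic ribosome is built from a small subunit, which reads the mRNA, and a large subunit, which joins the amino acids and releases the chain through a tunnel. Ribosomal proteins are made in most cells in matched amounts, and each is usually encoded by 1 gene. Several sit on the X chromosome, which is silenced in male germ cells during meiosis. RPL10, needed for the last steps of large subunit assembly, and RPL39, which lines the exit tunnel, are X-linked, and their autosomal copies RPL10L and RPL39L are known for their expression in male germ cells. Spermatocytes pass through meiosis, round spermatids transcribe the genes of sperm formation, and elongating spermatids condense their chromatin and live on stored mRNA.

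The 2 testis paralogs lie outside the X chromosome. Rpl39l is at chr16:10170226-10174911 on the plus strand and Rpl10l at chr12:66283379-66284401 on the minus strand (GRCm38), while Rpl39 is at chrX:37082520-37085402 and Rpl10 at chrX:74270812-74273135. In all, 4 of the 80 genes were X-linked, RPL10, RPL36A, RPL39 and RPS4X, and each had a member gene with the ending L or AL on an autosome. These copies were RPL10L, RPL36AL, RPL39L and RPS4L, the last annotated as a transcribed processed pseudogene. The 250 bases that RefSeq gives before the start of each testis paralog are shown, since each paralog was the member whose profile across the cells was most like that of the other. The sequences are from RefSeq (GRCm38.p6), 5′ to 3′ on the strand of the gene, with capitals for the motifs found. The Rpl39l window is at chr16:10169978-10170227 (plus strand), so that its last bases lie inside the gene as placed above, and the Rpl10l window at chr12:66284402-66284651 (minus strand).
Rpl39l: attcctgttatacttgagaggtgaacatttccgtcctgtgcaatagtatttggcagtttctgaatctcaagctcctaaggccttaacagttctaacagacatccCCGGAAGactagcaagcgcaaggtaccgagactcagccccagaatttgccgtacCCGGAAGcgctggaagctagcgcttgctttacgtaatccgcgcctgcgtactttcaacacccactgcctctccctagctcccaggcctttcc
Rpl10l: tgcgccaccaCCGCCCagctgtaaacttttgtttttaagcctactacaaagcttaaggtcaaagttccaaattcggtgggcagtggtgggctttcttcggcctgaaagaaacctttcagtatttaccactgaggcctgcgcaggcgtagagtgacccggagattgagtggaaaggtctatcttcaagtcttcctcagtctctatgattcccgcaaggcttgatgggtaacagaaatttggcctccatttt
Rpl39l held the ETS motif CCGGAAG at positions 105 and 159, and Rpl10l held the GC box GGGCGG on the other strand, at position 11. Neither window held the cAMP response element TGACGTCA or TATAAA. Of the 80 genes, 60 had a promoter in the RefSeq table. With both strands searched, CCGGAAG was in 28.3% of these 60 windows and 6.91% of all 32851 windows of that length. GGGCGG was in 46.7% against 32.7%, TGACGTCA in 8.33% against 1.55% and TATAAA in 5.0% against 12.4%. A match of letters is no evidence of binding.

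The count tables summed to 6701235 and 4859455 counts in WT replicates 1 and 2 and to 2652665 and 1593546 counts in Ctcf-cKO replicates 1 and 3. After filtering, 829 cells remained, 97 and 246 in the WT and 231 and 255 in the Ctcf-cKO mice. They were clustered without any ribosomal protein gene and named by markers as spermatocyte-like (61 cells, 14 of 26 spermatocyte markers), round spermatid-like, elongating spermatid-like and somatic-like. The elongating spermatid-like class joined clusters of 154 and 150 cells, with 10 and 7 markers of elongating spermatids raised. The cluster of 154 cells was led by AARD, a gene of the Sertoli list, and had 3 Sertoli markers raised. Its median of 1928.5 counts a cell was the lowest of all clusters. The cluster of 150 cells was led by the haemoglobin gene HBB-BS and had 5 round spermatid markers raised. The round spermatid-like class joined clusters of 135 and 73 cells. It held 15 and 142 cells of the WT and 39 and 12 of the Ctcf-cKO mice. These clusters gave 2 and 13 cells in WT replicate 1, but 98 and 44 in WT replicate 2. A cluster of 64 cells stayed unnamed and outside these 4 classes. Elongating spermatid-like cells numbered 64 and 40 in the WT and 90 and 110 in the Ctcf-cKO mice, and the somatic-like class only 9 and 6 in the WT against 73 and 104. The somatic-like class joined 99 Leydig-like cells, 32 macrophage-like cells and 61 cells of a type left unnamed, with 6 and 0 Leydig-like cells in the WT and 41 and 52 in the Ctcf-cKO mice. Scrublet marked 5 to 9 cells a mouse as doublets, and 1 cell barcode was shared by a pair of libraries. Counts are not molecules here, since the value 4 made up 11.5% to 29.97% of all values above 0 and the value 5 only 2.81% to 3.54%. Confidence intervals take each count as independent, so they are too narrow even for counting error and leave out the spread between mice.

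The share of counts in the 80 genes was highest in somatic-like and spermatocyte-like cells and lower in both spermatid classes. In somatic-like cells they held 1.26% and 1.43% of the counts in the WT and 1.60% and 1.57% in the Ctcf-cKO mice. Spermatocyte-like cells gave 1.25%, 1.13%, 1.51% and 1.22% in the same order of mice, and round spermatid-like cells gave 0.663%, 0.788%, 0.993% and 0.729%. The share was lower in round spermatid-like than in spermatocyte-like cells of 4 of 4 mice, with differences of -0.585 to -0.345 percentage points, and the ranges of these classes did not overlap. Elongating spermatid-like cells held 0.631%, 0.706%, 0.880% and 0.947%, with both Ctcf-cKO mice above both WT mice. The widest 95% Wilson interval, that of the 10 spermatocyte-like cells of Ctcf-cKO replicate 3, ran from 1.11% to 1.33%. Barcodes on the low plateau of each library, after rank 500 and up to rank 1000 by counts, were taken to measure RNA outside cells. Whether some of them held small or damaged cells was not tested. In the plateau barcodes the genes held 0.663% and 0.731% in the WT and 0.834% and 0.929% in the Ctcf-cKO mice, close to the elongating spermatid-like cells of the same mice.

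**Figure D1:**
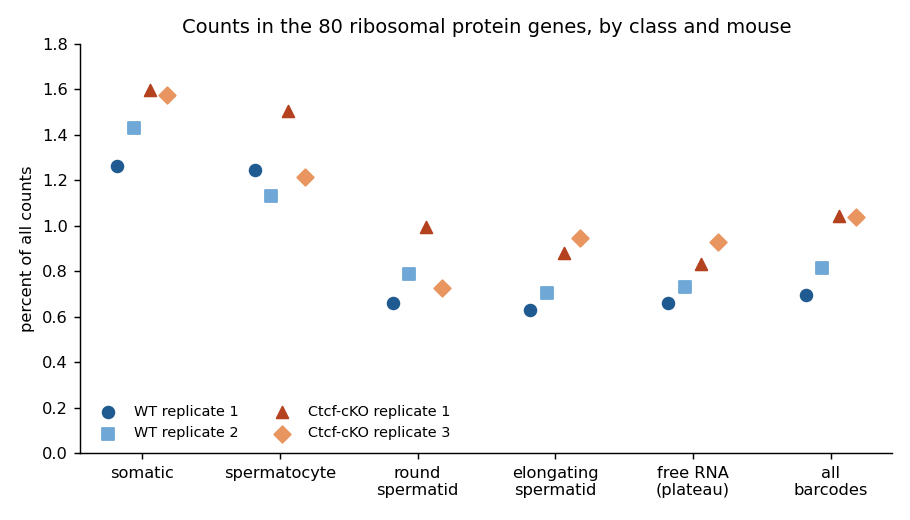
Share of all counts, in percent, that fell in the 80 ribosomal protein genes, for each class of cells, for the low-plateau barcodes (free RNA) and for all barcodes; each point is 1 mouse. Somatic-like cells lie between 1.26% and 1.60%, and round spermatid-like cells between 0.663% and 0.993%.

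Levels among the members were uneven. Over all barcodes, 25 genes had at least 1000 counts, 25 had at least 100 but fewer than 1000, and 30 had fewer than 100. RPL39L was the member with the most counts, 12394 in all, ahead of RPS20 and RPL32, and it had 5762 and 4158 counts in the WT and 1578 and 896 in the Ctcf-cKO mice. RPL10L had 2328 and 1422 counts against 466 and 208. Since 3′ ends were counted, these totals do not scale with transcript length. They can depend on how far the end of a transcript can be told from its pseudogenes. Among the genes with at least 1000 counts, a median of 0% (0% to 83.3%) of the 50-base words in the last 300 bases also occurred in another gene. Among those under 100 counts it was 62.0% (0% to 100%). Across the members, counts and shared words correlated weakly (Spearman rho = -0.36). Loss of counts to shared words was not told apart from low expression. For RPL39L and RPL10L it was 0%, and for RPL10 and RPL36A it was 100%. RPL10 had 6 counts in WT replicate 1 and 0 in the other 3 mice, and RPL36A had 3 counts, also in WT replicate 1. Their low counts therefore say nothing of how much of these mRNAs was present. The -PS rows, 190 in all, are not members, and held counts equal to 11.5% to 15.7% of the members' counts.

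RPL39L was high in spermatocyte-like and round spermatid-like cells and lower in the other classes, except in spermatocyte-like cells of Ctcf-cKO replicate 3. In spermatocyte-like cells it stood at 1228 and 1195 CPM (here counts scaled to the depth of each sum) in the WT and at 1128 and 528 CPM in the Ctcf-cKO mice. Round spermatid-like cells had 1137 and 942 CPM in the WT and 1064 and 1085 CPM in the Ctcf-cKO mice, and there RPL39L ranked 1st among the members in 4 of 4 mice. In Ctcf-cKO replicate 3, 3 cells of 1 cluster gave 94527 of the 118863 counts of this class and 109 of the 129 RPL39L counts. The other 9 cells of that mouse stood at 822 CPM. RPL39L ranked 4 to 6 in elongating spermatid-like cells, with 391, 612, 516 and 516 CPM, and 10 to 19 in somatic-like cells, with 213, 540.3, 301 and 574 CPM. The mean over the 4 mice was 1057 ± 82.6 CPM (SD, n = 4) in round spermatid-like, 1019.7 ± 330.1 in spermatocyte-like, 509 ± 90.5 in elongating spermatid-like and 407 ± 178 in somatic-like cells. The first 2 of these means differed by less than either SD, and the last 2 by less than the SD of the somatic-like cells. The plateau barcodes held 978, 566, 432 and 646 CPM, so its somatic-like level lay below the free RNA of the library in 4 of 4 mice. In elongating spermatid-like cells it lay above it only in WT replicate 2 and Ctcf-cKO replicate 1. The 528 CPM in spermatocyte-like cells of Ctcf-cKO replicate 3 lay below both the free RNA and the somatic-like cells of that mouse.

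RPL10L was highest in spermatocyte-like cells. It stood at 754 and 657 CPM in spermatocyte-like cells of the WT and at 495 and 327 CPM in those of the Ctcf-cKO mice. Round spermatid-like cells had 487 and 262 CPM against 306 and 252, and elongating spermatid-like cells 54.7 and 111 CPM against 57.1 and 70.9. Its level was lower in round spermatid-like than in spermatocyte-like cells, and lower again in elongating spermatid-like cells, in 4 of 4 mice. Somatic-like cells had 62.6, 193, 96.9 and 118 CPM, below the plateau barcodes of each mouse (434, 225, 115 and 172 CPM).

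As a share of all member counts, RPL39L and RPL10L together held 15.9% and 16.4% in spermatocyte-like cells of the WT and 10.8% and 7.04% in those of the Ctcf-cKO mice. The share was 24.5%, 15.3%, 13.8% and 18.4% in round spermatid-like cells. In elongating spermatid-like cells it was 7.06%, 10.2%, 6.51% and 6.19%, and in somatic-like cells 2.18%, 5.12%, 2.49% and 4.40%. The paralogs thus took a larger part of the members' counts in spermatocyte-like than in somatic-like cells of 4 of 4 mice, by 2.64 to 13.7 percentage points. Between round and elongating spermatid-like cells this part was smaller in 4 of 4 mice, with differences of -17.4 to -5.05 percentage points. With 4 mice paired, an exact permutation test cannot give a two-sided p below 0.125.

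**Figure D2:**
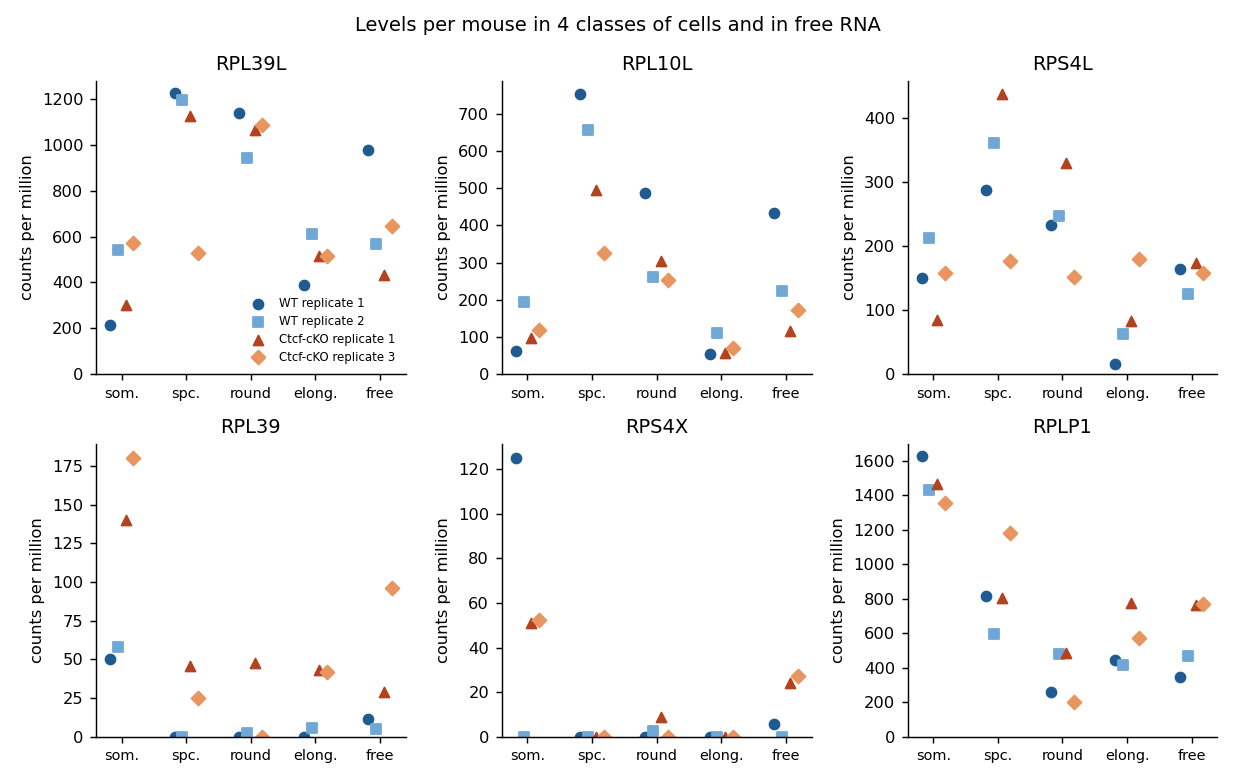
CPM in each mouse for RPL39L, RPL10L, RPS4L, RPL39, RPS4X and RPLP1 in somatic-like (som.), spermatocyte-like (spc.), round and elongating (elong.) spermatid-like cells and in the low-plateau barcodes (free). RPL39L and RPL10L lie highest in spermatocyte-like or round spermatid-like cells, whereas RPL39 and RPLP1 lie highest in somatic-like cells.

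The X-linked genes RPL39 and RPS4X had most of their class counts in somatic-like cells. RPL39 had 4 and 3 counts in somatic-like cells of the WT and 55 and 55 counts in those of the Ctcf-cKO mice. In spermatocyte-like cells it had 0 and 0 counts in the WT against 7 and 1 in the Ctcf-cKO mice. Within the WT its pooled level was 53.1 CPM in somatic-like and 0 CPM in spermatocyte-like cells. With 3 counts taken as the limit that a count of 0 allows over both mice together, the ratio was 11.3. This is no lower bound, since 1 molecule can give 4 counts here. The 7 somatic-like counts also have an error of their own. Within the Ctcf-cKO mice RPL39 stood at 140.3 and 180.4 CPM against 45.6 and 25.2 CPM, a pooled ratio of 3.81. Its 95% exact interval of 1.87 to 9.05 takes counts as independent and is too narrow. The spermatocyte-like counts of these mice came from 2 and 1 cells. RPS4X, a small subunit protein, had 10, 0, 20 and 16 counts in somatic-like cells and 0 in spermatocyte-like and elongating spermatid-like cells of all 4 mice. By the same limit its ratio of somatic-like to spermatocyte-like cells was 16.2 within the WT, where all 10 counts came from replicate 1. It was 3.33 within the Ctcf-cKO mice, and neither value is a lower bound. RPL10 and RPL36A had no count in any class, which measures nothing, since their transcript ends cannot be told from other genes. Sums of the X-linked genes therefore rest on RPL39 and RPS4X and may lie too low. RPL39 and RPS4X held 0 counts in spermatocyte-like cells of both WT mice. All 4 autosomal copies held 2292 and 2248 CPM there, 18.4% and 19.9% of all member counts. In somatic-like cells RPL39 and RPS4X held 175, 57.9, 191 and 233 CPM and the 4 copies 438, 1003, 538 and 889 CPM. The pseudogene row RPL10-PS3, which shares part of the end of RPL10, held 150.1, 232, 467 and 453 CPM there.

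The log2 ratio of RPL39L to RPL39 within a sum, with 0.5 added to both counts, cannot be changed by any scaling between libraries. Where RPL39 had 0 counts, however, the size of the ratio depends on the 0.5 added and grows with the depth of the sum. The ratio was 1.96 and 3.03 in somatic-like cells of the WT and 1.09 and 1.66 in those of the Ctcf-cKO mice. In spermatocyte-like cells it was 8.31 and 10.25 in the WT and 4.53 and 3.84 in the Ctcf-cKO mice. The 2 WT values came from 158 and 609 counts of RPL39L over 0 counts of RPL39, so the sizes of differences that use them are not measured well. The ratio was thus higher in spermatocyte-like than in somatic-like cells of 4 of 4 mice, by 4.798 ± 2.38 (SD, n = 4; two-sided exact permutation test, p = 0.125, the smallest possible; 0.389 after Benjamini-Hochberg adjustment over 7 comparisons). Round spermatid-like cells differed from spermatocyte-like cells by 1.08 ± 2.61 (n = 4, exact permutation p = 0.5), higher in 2 of 4 mice. The ratio was lower in elongating than in round spermatid-like cells of 4 of 4 mice, by -2.01 ± 1.74 (n = 4, exact permutation p = 0.125). Between genotypes, the mean ratio of the Ctcf-cKO mice differed from that of the WT mice by -5.09 in spermatocyte-like, -3.17 in round, -4.51 in elongating spermatid-like and -1.11 in somatic-like cells. For 2 mice against 2 the exact test cannot go below p = 0.333, which each of these 4 comparisons gave. In the spermatocyte-like and elongating spermatid-like sums the somatic marker lists differed between genotypes together with the RPL39 counts (values with the genotype comparisons). In round spermatid-like sums the Leydig and Sertoli lists differed, while RPL39 had 0 and 4 counts in the WT against 22 and 0 in the Ctcf-cKO mice. The part of these cell types in the ratio was not tested. For RPL10L and RPL10 no ratio is given, since RPL10 had 0 counts in every class and its transcript end cannot be told from other genes.

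Across the 16 sums of a mouse and a class, the log2 CPM of RPL39L correlated best with RPL10L (Pearson r = 0.705), then RPL26 (0.535), among 46 members. For RPL10L the closest were RPL39L and RPS4L (0.645). The lowest values were -0.645 for RPS21 with RPL39L and -0.561 for RPL39 with RPL10L. These are descriptions, since the sums share mice and libraries. RPS4L, the copy of RPS4X, stood at 288, 361, 437 and 176 CPM in spermatocyte-like cells and at 16.1, 63.0, 82.2 and 180.5 CPM in elongating spermatid-like cells. RPL36AL stayed at or below 57.9 CPM in every class and mouse. The other members named as copies were RPS27L, a paralog of RPS27 found in many tissues, with 75.5 to 419.6 CPM in spermatocyte-like cells, and RPL3L, known from heart and skeletal muscle, with 1 count in all. RPL32L and RPL6L, annotated as processed pseudogenes, had 56 counts and 1 count.

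The stages were tested with edgeR's quasi-likelihood test on counts summed per mouse and class, in 1 fit with the mouse as a block, over 7972 genes of which 47 were members. P-values were adjusted by Benjamini-Hochberg over all genes tested. Scaling moved the median of all genes, which between spermatocyte-like and somatic-like cells was -0.33 on the log2 scale with TMM factors and 0.21 with library totals. Differences of members are therefore also given against that median. Against somatic-like cells, 1 member was higher in spermatocyte-like cells (3.3% of all genes were) and 4 were lower (9.18% of all genes). The members' median log2 difference was -0.99, or -0.65 against that of all genes, and 39 of 47 members lay below the median of all genes. RPL10L was the member that rose, by 1.65 ± 0.50 (SE, adjusted p = 0.0270, edgeR), and it was higher in 4 of 4 mice. Without 1 mouse its adjusted p was 0.0568 (WT replicate 1 left out), 0.0903 (WT replicate 2) or 0.0832 (Ctcf-cKO replicate 1), above the threshold of 0.05. RPL39L differed by 0.79 ± 0.50 (adjusted p = 0.297, edgeR), and by 1.36 with an adjusted p of 0.0247 when scaled by library totals. It was higher in 3 of 4 mice, Ctcf-cKO replicate 3 being the exception.

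The members lower in spermatocyte-like cells were RPL39 (-4.19 ± 1.11, adjusted p = 0.0115, edgeR), RPS4X (adjusted p = 0.0228, all 4 spermatocyte-like sums at 0), RPS9 and RPLP1. RPS9, a small subunit protein, had 334, 226, 345 and 126 CPM in spermatocyte-like and 300.3, 617, 551 and 522 CPM in somatic-like cells (-1.46 ± 0.49, adjusted p = 0.0428, edgeR). WT replicate 1 was the exception, with slightly more RPS9 in its 5 spermatocyte-like cells than in its somatic-like cells. RPLP1 is 1 of the acidic stalk proteins through which the large subunit engages elongation factors. It had 816, 598, 802 and 1183 CPM in spermatocyte-like and 1626, 1428, 1466 and 1351 CPM in somatic-like cells, without overlap (-1.36 ± 0.47, adjusted p = 0.0489, edgeR). RPS4X, RPS9 and RPLP1 each lost the call whichever mouse was left out, RPL39 only without WT replicate 2 (adjusted p = 0.0786, edgeR), and with library totals RPS9 and RPLP1 did not pass. The stalk partners of RPLP1, RPLP0 and RPLP2, did not pass the threshold. RPLP0, the stalk base, had 956, 851, 1043 and 1509.9 CPM in spermatocyte-like against 438, 656, 775 and 941 CPM in somatic-like cells.

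From spermatocyte-like to round spermatid-like cells no member rose (9.38% of all genes did) and 1 fell (2.06% of all genes). This was RPL14, a large subunit protein, with 101, 112, 326 and 50.3 CPM in spermatocyte-like and 3.38, 28.9, 80.2 and 33.7 CPM in round spermatid-like cells. It was lower in 4 of 4 mice (-1.91 ± 0.61, adjusted p = 0.0344, edgeR), and its call was lost when WT replicate 1, WT replicate 2 or Ctcf-cKO replicate 1 was left out. The members' median was -0.32, or -0.51 against that of all genes, and 38 of 47 members lay below the median of all genes. RPL39L differed by 0.51 ± 0.48 (adjusted p = 0.556) and RPL10L by -0.28 ± 0.47 (adjusted p = 0.777, edgeR).

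From round to elongating spermatid-like cells, 2 members rose (6.02% of all genes did) and 1 fell (6.61% of all genes). RPS20, a small subunit protein, went from 367, 699, 746 and 446 CPM to 1043, 950.3, 1092 and 1086 CPM, without overlap (1.69 ± 0.49, adjusted p = 0.0177, edgeR). RPL41, the shortest of the ribosomal proteins, went from 225, 416, 312 and 202 CPM to 728, 567, 397 and 445 CPM, higher in 4 of 4 mice (1.59 ± 0.48, adjusted p = 0.0233, edgeR). RPL10L fell (-1.52 ± 0.48, adjusted p = 0.0309, edgeR), and the elongating values did not overlap the round ones. Its call was lost without WT replicate 1, WT replicate 2 or Ctcf-cKO replicate 1, that of RPL41 without WT replicate 1 or either Ctcf-cKO mouse, and that of RPS20 without either Ctcf-cKO mouse. With library totals these calls changed to 0 members higher and 3 lower, since the median of all genes then moved from -0.05 to -0.69. Against that median the members' median stood 0.79 higher with TMM and 0.73 with library totals, and 38 of 47 lay above it with TMM. RPL39L differed by -0.40 ± 0.47 (adjusted p = 0.625, edgeR), and by -1.10 with an adjusted p of 0.0409 when scaled by library totals.

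**Figure D3:**
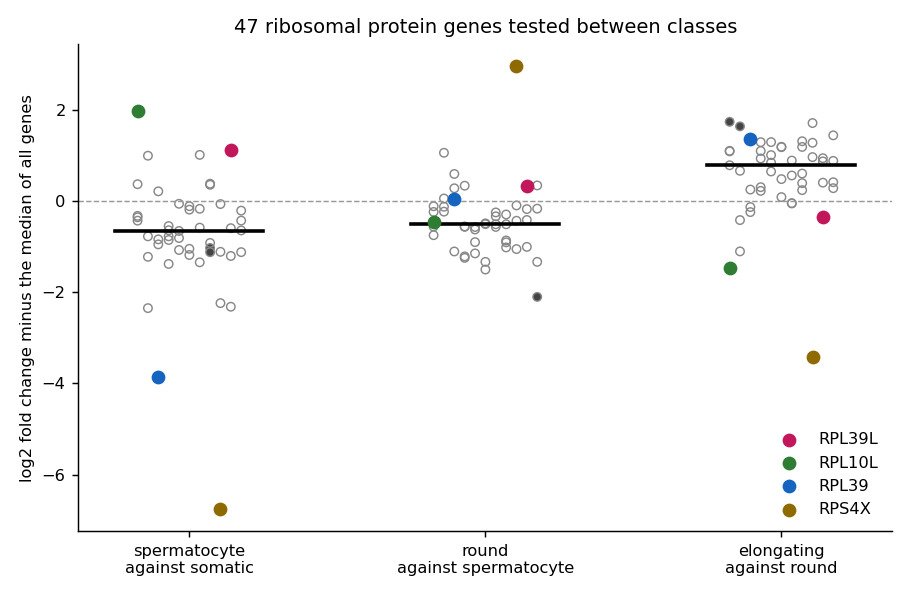
Log2 fold change of each of 47 ribosomal protein genes minus the median of all 7972 genes, for 3 comparisons between classes; coloured points are 4 named genes whatever their p, filled dark points are other members with an adjusted p under 0.05, open points are the rest and bars are the members' medians. RPL10L lies above the other members in the first comparison and below all but RPS4X in the third, and the points of RPS4X, which had 0 counts in spermatocyte-like and elongating spermatid-like cells, measure no size.

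Between genotypes, few members passed a test within a class. In spermatocyte-like cells none of 33 members tested passed, and neither did any of all 3586 genes (edgeR). There 0 members had an unadjusted p under 0.05, beside 267 of all genes, and DESeq2 called 0 members. In round spermatid-like cells none of 40 members passed, and again none of all 6413 genes (edgeR). Unadjusted, 0 members lay under 0.05 there, beside 219 of all genes, and DESeq2 called 0 members. In somatic-like cells none of 42 members passed, nor did any of all 4022 genes (edgeR), and DESeq2 called 0 members. Of the 42 members, 4 had an unadjusted p under 0.05, beside 308 of the 4022 genes. These 4, RPS3, RPL14, RPL39 and RPS27L, were seen only after the test and had log2 differences of 1.51, 1.78, 1.73 and 1.45. Neither paralog passed the test in any class. RPL39L differed by -0.48 ± 0.55 in spermatocyte-like, -0.03 ± 0.32 in round, -0.08 ± 0.29 in elongating spermatid-like and 0.41 ± 0.58 in somatic-like cells (log2, SE, n = 2 a group, adjusted p from 0.896 to 0.998, edgeR). RPL10L differed by -0.71 ± 0.50, -0.45 ± 0.41, -0.46 ± 0.53 and -0.01 ± 0.74 (adjusted p from 0.648 to 0.998, edgeR). With 2 mice a group, changes of about the size of these standard errors were not detectable.

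Members whose mice did not overlap between genotypes are given as values. In spermatocyte-like cells 11 of 33 members were higher in both Ctcf-cKO mice, against 17.8% of all genes, and 4 were lower, against 25.0% of all genes. The lower ones were RPS25, RPS15A, RPL10L and RPL41. RPS25 had 155 and 139 against 43.6 and 0 CPM after TMM scaling. RPL13 was the largest of the higher ones, with 63.7 and 151 against 296 and 429 scaled CPM, followed by RPSA, RPS21 and RPS10. RPSA, a small subunit protein first described as a laminin receptor, differed by 1.49 on the log2 scale, and RPS21 had 155 and 272 against 436 and 572 scaled CPM. In round spermatid-like cells 7 of 40 members were higher, against 15.9% of all genes, among them RPS21, RPS26 and RPL23 with log2 differences of 0.55, 0.50 and 0.49. There 3 members were lower, against 17.8% of all genes, among them RPL37A and RPLP2 with log2 differences of -1.26 and -0.53. In somatic-like cells 19 of 42 were higher, against 27.7% of all genes, and RPL41 was the 1 lower, against 15.2% of all genes. Among the higher ones RPL14, RPL39 and RPL26 had log2 differences of 1.78, 1.73 and 1.69. The median of the members was 0.33 in spermatocyte-like, 0.25 in round spermatid-like and 0.42 in somatic-like cells, beside -0.13, -0.05 and 0.18 for all genes tested. Without Ctcf-cKO replicate 1 the first 2 of these medians became -0.43 and -0.62.

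Somatic markers differed between genotypes in the germ cell sums of these comparisons too. In spermatocyte-like cells the 17 Leydig markers summed to 139.9 and 261 CPM in the WT against 12360 and 7977 CPM in the Ctcf-cKO mice, with 1 and 9 against 14 and 14 of them above 0. The 19 Sertoli markers summed there to 38.9 and 219.7 against 2497 and 3699 CPM, with 3 and 13 against 15 and 11 above 0 and FSHR at 0 in all 4 mice. Macrophage markers stood at 0 and 86.3 against 372 and 579 CPM, and peritubular and fibroblast markers at 54.4 and 107.9 against 2523 and 352 CPM. In round spermatid-like cells the Leydig markers summed to 96.3 and 207 against 3125 and 858 CPM, with 5 and 11 against 16 and 10 above 0. The Sertoli markers summed there to 11.8 and 287 against 1593 and 387 CPM, with FSHR and DHH at 0 in all 4 mice. Macrophage markers (20.3 and 150.2 against 425 and 109 CPM) and peritubular and fibroblast markers (11.8 and 163 against 2973 and 42.1 CPM) overlapped between genotypes in round spermatid-like cells. The part of these cell types in the members' values was not tested.

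In elongating spermatid-like cells 7 of 39 members were higher in the Ctcf-cKO mice and none lower (edgeR over 4164 genes, of which 11.1% were higher). RPS3, which lines the mRNA entry of the small subunit, had 29.6 and 60.0 CPM in the WT and 375 and 467 CPM in the Ctcf-cKO mice (3.18 ± 0.40, adjusted p = 0.000217, edgeR). RPL14 had 6.27 and 15.0 against 153 and 168 CPM (3.94 ± 0.60, adjusted p = 0.000925, edgeR). The groups lay far apart for both. RPL39 had 0 and 2 counts in the WT against 19 and 13 in the Ctcf-cKO mice, a pooled ratio of 31.0 (adjusted p = 0.0406, edgeR). Its 95% exact interval of 7.91 to 267 takes counts as independent and is too narrow. The counts came from 0 and 1 cells in the WT and 7 and 5 cells in the Ctcf-cKO mice. RPL4, whose protein narrows the exit tunnel, had 25.1 and 86.9 against 210.1 and 332 CPM (2.28 ± 0.51, adjusted p = 0.00994, edgeR). RPL13, RPS19 and RPS14 rose by 1.82, 1.33 and 1.04 (adjusted p = 0.0294, 0.0335 and 0.0407, edgeR). RPS19 is a small subunit protein known from inherited anaemia. The members' median was 0.52, beside 0.03 for all genes. RPLP0, RPLP1 and RPLP2 differed by -0.35, 0.48 and -1.30 and RPSA by 1.06, none past the threshold.

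Markers of other cell types moved with the genotype in these same sums. The 17 Leydig markers summed to 102 and 153 CPM in the WT and 3584 and 3471 CPM in the Ctcf-cKO mice, with 10 and 9 against 14 and 13 markers above 0. The Leydig receptor gene LHCGR was at 0 in all 4 mice, and CYP17A1 was at 0 in WT replicate 2. The 19 Sertoli markers summed to 118 and 417 against 3255 and 3816 CPM, with the receptor gene FSHR at 0 in all 4 mice. Macrophage markers (71.7 and 74.9 against 667 and 841 CPM) and peritubular and fibroblast markers (18.8 and 83.9 against 1389 and 1070.1 CPM) moved the same way. Markers of the elongating class itself summed to 263017 and 256839 against 205407 and 201119 CPM. By the mean of the Ctcf-cKO mice, RPS3, RPL14, RPL39, RPL4, RPS19 and RPS14 were higher in somatic-like than in any germ cell class, and RPL13 was highest in spermatocyte-like cells. The part of these cell types in the rise was not tested. When cells were clustered without the correction between mice, the class held 68, 90, 15 and 19 cells, its Leydig markers summed to 41.9, 165, 995 and 681 CPM, and 0 of 36 members passed, with RPS3 at 1.04 and RPS14 at -0.09. At a finer resolution of 1.3, 8 of 38 members passed and RPL39 had 0, 0, 14 and 10 counts, with Leydig markers at 103, 151, 3823 and 4392 CPM. The shares of all genes called under these clusterings are not given. RPL39 lost its call without WT replicate 1 (2.64, adjusted p = 0.348), Ctcf-cKO replicate 1 (adjusted p = 0.530) or Ctcf-cKO replicate 3 (adjusted p = 0.454), in edgeR in each case. RPL4 lost it without WT replicate 1, RPL13 without any mouse but WT replicate 2, and RPS19 and RPS14 without any of the 4 mice. RPS3 and RPL14 kept it whichever mouse was left out.

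**Figure D4:**
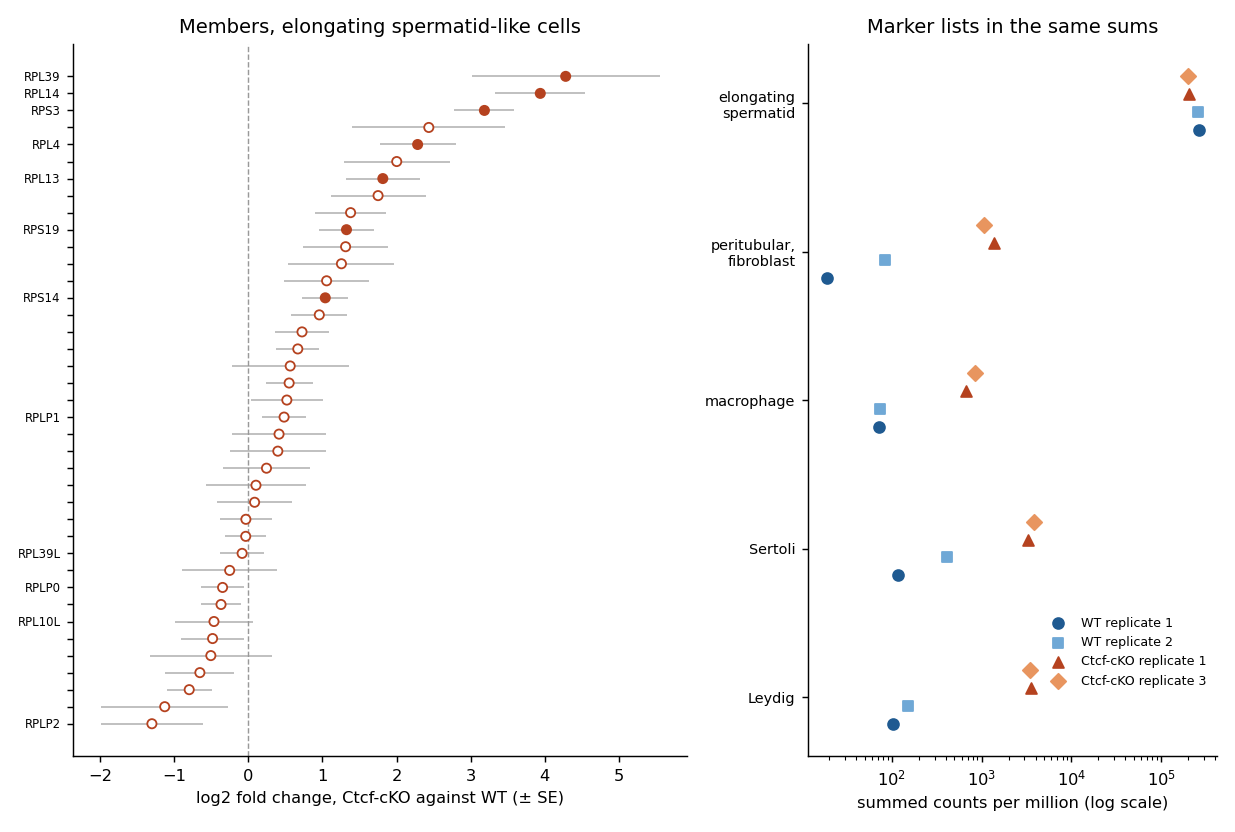
Left, log2 fold change of Ctcf-cKO against WT (± SE, edgeR) for the 39 members tested in elongating spermatid-like cells, filled where the adjusted p was under 0.05, with names for the filled members, the testis paralogs and the stalk proteins; right, summed CPM of 5 marker lists in the same sums on a log axis, 1 point per mouse. The 7 filled members lie to the right of 1, and the 4 lists of somatic markers are higher in both Ctcf-cKO mice than in both WT mice.

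Whether the genotype difference itself differed between elongating and round spermatid-like cells was tested by an interaction term over 9446 genes. None of 48 members passed, nor did any of all 9446 genes (edgeR), and DESeq2 called 0 members. Of the 48 members, 1 had an unadjusted p under 0.05, beside 311 of the 9446 genes. That 1 member was RPS27L, with a difference of 2.42 ± 1.19 on the log2 scale.

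When all barcodes of a mouse were summed, 26 of 58 members were higher and 2 lower in the Ctcf-cKO mice (edgeR over 14552 genes, of which 18.4% were higher and 10.1% lower). In such sums fewer cells of a type and less RNA per cell cannot be told apart. A large part of the counts of every mouse also lay in barcodes that were not kept as cells. That part was largest in WT replicate 1. There the 4 classes held 128690, 591964, 1115579 and 79931 counts and the unnamed cells 29022, out of 6701235. The part of the other barcodes in the differences below was not tested. The 2 lower members were the testis paralogs. RPL39L had 859.8 and 856 CPM in the WT and 595 and 562 CPM in the Ctcf-cKO mice (-0.50 ± 0.17, adjusted p = 0.0399, edgeR). RPL10L had 347 and 293 against 176 and 131 CPM (-0.99 ± 0.21, adjusted p = 0.00478, edgeR). The mice did not overlap for either gene, and RPS4L, with 166 and 199.6 against 164 and 159 CPM, was not called (-0.11 ± 0.21, adjusted p = 0.722). RPL39L lost its call without Ctcf-cKO replicate 1 (adjusted p = 0.241) or replicate 3 (0.319), and RPL10L without Ctcf-cKO replicate 3 (0.116, edgeR). The number of members called fell from 28 to 11 and 12 without Ctcf-cKO replicates 1 and 3.

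The largest rise over all barcodes was that of RPL39, from 4.63 and 8.44 CPM to 54.3 and 81.6 CPM (3.44 ± 0.40, adjusted p = 9.36e-05, edgeR). RPL5, which binds the 5S ribosomal RNA, followed with 0.597 and 1.65 against 13.2 and 7.53 CPM (3.30 ± 0.82), then RPL19 (2.80 ± 0.59) and RPL14 (2.28 ± 0.33), all past the threshold. The X-linked RPS4X rose from 5.07 and 3.29 to 18.1 and 18.2 CPM (2.17 ± 0.51, adjusted p = 0.00875, edgeR). RPS3 rose from 85.1 and 135 to 436 and 464 CPM (2.09 ± 0.24, adjusted p = 8.69e-05, edgeR). RPSA and RPLP1 rose by 1.59 and 0.91, while RPLP0 (0.44) and RPLP2 (0.26) did not pass. All 26 members higher in Ctcf-cKO lay between 0.54 (RPS20) and 3.44, and the members' median was 0.69 beside -0.04 for all genes. Somatic-like cells made up 9.28% and 2.44% of the cells of the WT and 31.6% and 40.8% of those of the Ctcf-cKO mice. Round spermatid-like cells made up 15.5% and 57.7% of the WT against 16.9% and 4.71% of the Ctcf-cKO cells, and spermatocyte-like cells 5.15% and 12.6% against 6.49% and 3.92%. The part of this mix in the members' differences was not tested. The paralogs together held 17.3% and 14.1% of the member counts of the WT and 7.39% and 6.67% of those of the Ctcf-cKO mice.

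**Figure D5:**
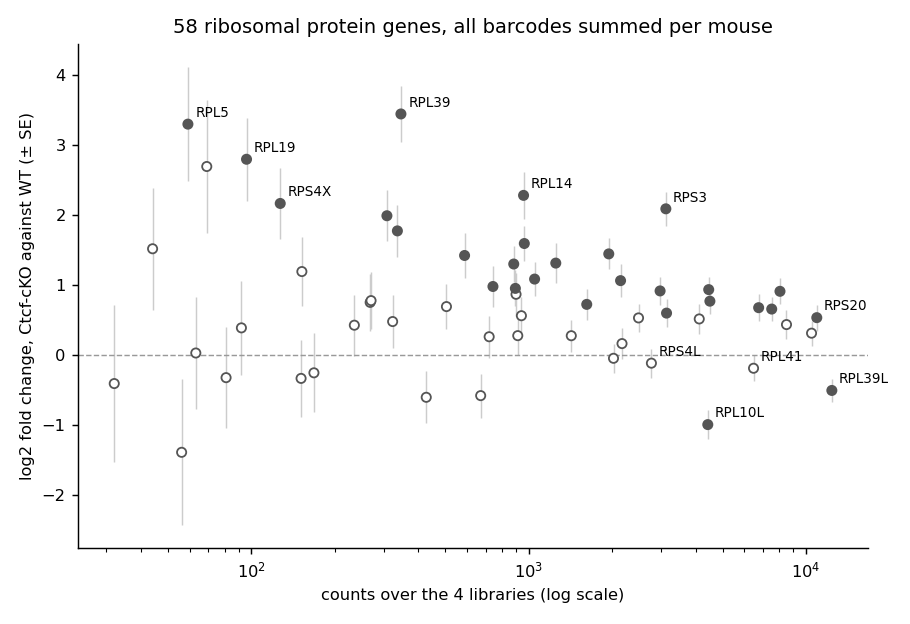
Log2 fold change of Ctcf-cKO against WT (± SE, edgeR) for 58 members over all barcodes, against their counts over the 4 libraries on a log axis; filled points have an adjusted p under 0.05. RPL39L, with the most counts, and RPL10L are the 2 filled points below 0, and RPL39 is the highest.

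Other genes of the translation apparatus were counted from lists. In elongating spermatid-like cells the Ctcf-cKO mice had 1 of 5 ribosomal proteins under other names higher, RACK1, a scaffold on the small subunit (2.80 ± 0.53). Also higher were 1 of 12 elongation factor and related mRNAs (EEF1B2), 1 of 24 initiation factors (EIF4A1), 1 of 9 ribosome biogenesis genes (GAR1) and 2 of 33 mitochondrial ribosomal proteins (MRPL34 and MRPS6), with none lower, beside 11.1% of all genes higher. From round to elongating spermatid-like cells, 6 of 27 initiation factors rose and 1 fell, beside 6.02% and 6.61% of all genes, and EIF4E, the cap-binding protein, rose by 2.42 ± 0.51 while EIF5B fell by 3.17 on the log2 scale. PABPC1, which binds the poly(A) tail, fell by 1.98 there and was higher by 1.84 in spermatocyte-like against somatic-like cells. Over all barcodes 12 of 73 mitochondrial ribosomal proteins were higher and 3 lower, beside 26 and 2 of the 58 cytosolic ones, and 6 of 28 biogenesis genes were higher and 2 lower. Of all genes, 18.4% were higher and 10.1% lower in that comparison.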

How the data were processed

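Testes of 2 WT and 2 Ctcf-cKO mice were profiled with the SureCell 3′ kit in droplets. Per the labels, the authors used the GRCm38 build, and they deposited 1 table of whole-number counts per mouse, with genes in rows and cell barcodes in columns, not normalized and with barcodes that hold no cell. Rules for merging reads of a molecule are not given in the sources used here. The members and gene lists were chosen with earlier results of these data known. Barcodes with 200 to 7000 genes, at most 10% mitochondrial counts and at least 3 times the median count of ranks 500 to 1000 were kept. Cells were clustered in R 4.3.3 from 2000 variable genes without members (15 components, Harmony-type correction between mice, resolution 0.9). Scrublet (scanpy 1.11.5) marked doublets, which were kept. Counts were summed per mouse and class (at least 5 cells in each mouse, sums of 39737 to 1624435 counts) and tested with edgeR 4.0.16 (TMM, filterByExpr, quasi-likelihood F, adjusted p under 0.05), the mouse being the replicate. The text names the members ending in L, X or AL, the X-linked, stalk and RPSA genes, the 3 members most like each paralog and up to 4 members per comparison and direction, by size, that passed or, where none passed, did not overlap; any others were named after their values were seen. DESeq2 1.42.0, other scalings, filters, cell limits and clusterings, and each mouse left out, were alternatives. P-values of the genotype tests within a class or over all barcodes measure the spread between mice. Those of the stage and interaction tests, fitted with the mouse as a block, measure how class differences vary between mice, pooled over the classes. The steps were tested on simulated data. Some values that this rule would name are not reported here.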

Additional observations from a re-analysis of the deposited data

Results flagged for a closer look

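Of the 12 pseudogene rows with the most counts, which no comparison above used, 2 had at least 2 times the CPM of the higher WT mouse in both Ctcf-cKO mice. RPS2-PS10 had 24.9 and 60.5 CPM in the WT and 215 and 233 CPM in the Ctcf-cKO mice over all barcodes. RPL10-PS3 had 7.61 and 17.1 CPM against 202 and 193 CPM. These rows were chosen after their values were seen and were not tested. Of the 50-base words in the last 300 bases of RPL10, 49.4% also occur in RPL10-PS3, and 78.1% of those of RPS2 occur in RPS2-PS10. In somatic-like cells RPL10-PS3 had 150.1 and 232 CPM in the WT against 467 and 453 CPM in the Ctcf-cKO mice, and in spermatocyte-like cells 0 and 5.88 against 306 and 50.3 CPM, the last from 2 counts. With 2 mice a group no mouse could be tested as standing apart from its group.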

How the results depend on the processing

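With DESeq2 the number of members called was 3 for the genotype in elongating spermatid-like cells (7 in edgeR) and 16, 9 and 9 for the 3 stage comparisons in order (5, 1 and 3 in edgeR). DESeq2 size factors in edgeR gave 10 and 5 for the first 2 stage comparisons, and library totals 6 for the second. Without a filter on low genes the numbers were 3 for the genotype and 2, 0 and 0 for the stages, and with at least 10 counts in every sum 8 for round spermatid-like against spermatocyte-like and 5 for elongating against round spermatid-like cells. A limit of 5 times the plateau gave 11 for the genotype, 8 for the last stage comparison and 1 for the interaction, and left too few spermatocyte-like and somatic-like cells for a test. Keeping as many barcodes as the study counts gave 2 and 5 for the first and last, and leaving out Scrublet doublets 13 for the genotype. Without the correction between mice 0 members were called for the genotype and 0 for the last, and spermatocyte-like cells were too few. Resolution 0.5 gave 3 and 0 for the first and last, and 1.3 gave 0 for the second. Members allowed in the clustering gave 11 for the genotype and 3 for the first. Subtracting free RNA gave 2 for the genotype and 2 and 0 for the first 2 stages. Counts divided by 4 and rounded up, chosen after seeing the data, gave 11 for the genotype and 11, 9 and 12 for the stages. Shares of all genes called are not given for any alternative, here, above or below. The numbers thus cannot tell a change among the members from a change over all genes. The cause was not tested.

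Leaving out 1 mouse gave 2 to 8 members for the genotype in elongating spermatid-like, 0 to 3 in somatic-like cells (3 without either WT mouse), 11 to 34 over all barcodes, and 0 to 3, 0 to 1 and 0 to 2 for the stages.

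The sign changed for RPL39L between genotypes in round spermatid-like (0.0632 with library totals, 0.0333 with 500 genes per cell, 0.0662 with counts divided by 4), elongating spermatid-like (0.12 with library totals, 0.0750 with 10 counts, 0.23 with the study's number of barcodes, 0.0380 at resolution 1.3, 0.18 divided by 4) and somatic-like cells (-0.0795 at resolution 0.5, -0.0340 at 1.3), and between round spermatid-like and spermatocyte-like cells (-0.0424 with 10 counts). With 1 mouse left out its genotype difference ran from -0.24 to 0.0116 in round spermatid-like, -0.0296 to 1.21 in somatic-like and -1.50 to 0.11 in spermatocyte-like cells. For RPL10L the sign changed in somatic-like cells (0.25 unfiltered, 0.00387 with the study's barcodes, 0.26 uncorrected, 0.14 at resolution 1.3, 0.0264 with members allowed, 0.47 with free RNA subtracted, and from -0.56 to 0.95 with 1 mouse left out) and in elongating spermatid-like cells (0.22 at resolution 0.5). Without the correction, RPS14 in elongating spermatid-like cells was at -0.0928 and the genotype difference of the log2 ratio of RPL39L to RPL39 in somatic-like cells at 0.99. No paired analysis of the genotypes was possible, since the labels match no WT mouse to a Ctcf-cKO mouse. The depth of 39737 counts in the smallest sum limits what rare members can show.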
